A study of Homo sapiens with 16 samples.

Results

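Kinesins are the 41 genes of the deposited tables whose symbol is KIF or KIFC followed by a number, out of 20314 genes in the U251 tables and 20626 in the U343 tables. They were split by the role of the protein into 14 mitotic kinesins, 17 transport kinesins and 10 others, and KIFC1, a mitotic kinesin, was not analysed here. Read counts came from 16 libraries of U251 and U343, established human glioblastoma cell lines. Cells had received a mimic of miR-137 or a control mimic, each at 25 nM. RNASeq measured total RNA collected after 48 hours, and RIPSeq measured the RNA recovered with antibodies against the poly(A) binding protein PABP. Each combination of cell line, assay and mimic had 2 libraries, so n = 2 in every group, and the labels do not say whether these came from separate cultures. If they did not, p-values measure technical spread only. RNA of both lines was depleted of ribosomal RNA, but cDNA was made with different kits in U251 and U343, so cell line and kit cannot be told apart in any comparison of the lines.

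Kinesins are motor proteins that use ATP to move along or to take apart microtubules. Mitotic kinesins build the spindle, move chromosomes on it and act in cytokinesis, and their mRNAs are made mainly late in the cell cycle, so that dividing tumour cells hold far more of them than resting cells. Transport kinesins carry vesicles, organelles and mRNAs through cilia, axons and the cytoplasm, and several of them are most abundant in neurons. miR-137 is a microRNA of the nervous system whose level is low in glioblastoma and whose gain goes with neuronal differentiation.

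The agent of the study is shown first, with the seed (bases 2 to 8), the stretch that pairs with target mRNAs, in capitals. It is the mature sequence that RefSeq gives for GRCh38.p14, encoded on the minus strand at chr1:98046091-98046113. Whether kinesin mRNAs hold matches to this seed was not analysed here.
hsa-miR-137-3p: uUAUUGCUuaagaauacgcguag

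Depth was 10156675 to 18224061 counted reads per library in U251 RNASeq, 22359794 to 30731476 in U251 RIPSeq, 37952273 to 45134766 in U343 RNASeq and 37736206 to 45055184 in U343 RIPSeq. Levels below are CPM, counts scaled within an experiment to each library's total over the genes tested, multiplied by its TMM scaling factor. In U251 RNASeq these factors were 0.928 and 0.898 in the controls against 1.08 and 1.11 after miR-137. CPM there thus differ from plain shares of the library totals. Levels are not comparable between genes, since no transcript length was used. The libraries labelled U251 RIPSeq control stood apart from each other: the median absolute log2 ratio between them was 0.8 over 35 kinesins, against 0.06 between the miR-137 libraries of that experiment. Over all genes tested these medians were 0.69 and 0.07, so the spread was not particular to kinesins. In U343 RNASeq the miR-137 libraries differed by a median of 0.22 over kinesins, against 0.09 between the controls. Over all genes tested these were 0.23 and 0.11. Of the 6 glioma and astrocyte markers checked, VIM ranged from 3360 to 9850 CPM and SOX2 from 66.7 to 700 CPM over both lines. CD44 was at 1950 to 7110 CPM in U251 and 781 to 2220 in U343, and NES at 154 to 536 and 103 to 425. GFAP was at 3.28 to 32.8 CPM in U251 and at 3190 to 7400 CPM in U343. S100B was low in both lines, at 0.18 to 1.77 CPM in U251 and 2.19 to 10.4 CPM in U343. The summed level of 9 markers of other cell types stayed at or below 5.02 CPM in U251. It was 82.6 to 140 CPM in U343, mostly from CDH1 (63.8 to 120 CPM).

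In U343 cells the mitotic kinesins fell together after miR-137, in total RNA and in PABP-bound RNA. Their summed RNASeq level was 1140 CPM in both control libraries and 419 and 400 CPM in the miR-137 libraries. In RIPSeq the sum was 851 and 874 CPM in the controls and 304 and 327 CPM after miR-137. In edgeR, 12 of the 13 mitotic kinesins tested were lower in RNASeq, with a median log2 fold change of -1.56 over the 13, and the same 12 were lower in RIPSeq, with a median of -1.58. None of them was higher. Over all kinesins, 13 of 34 tested were lower and 5 higher in RNASeq, where 11.7% of all 15088 genes tested were lower and 8.31% higher. In RIPSeq 17 of 34 were lower and 12 higher, against 27.8% and 28.5% of 14866 genes. Over all genes tested the median was 0.02 in RNASeq and 0 in RIPSeq.

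**Figure D1:**
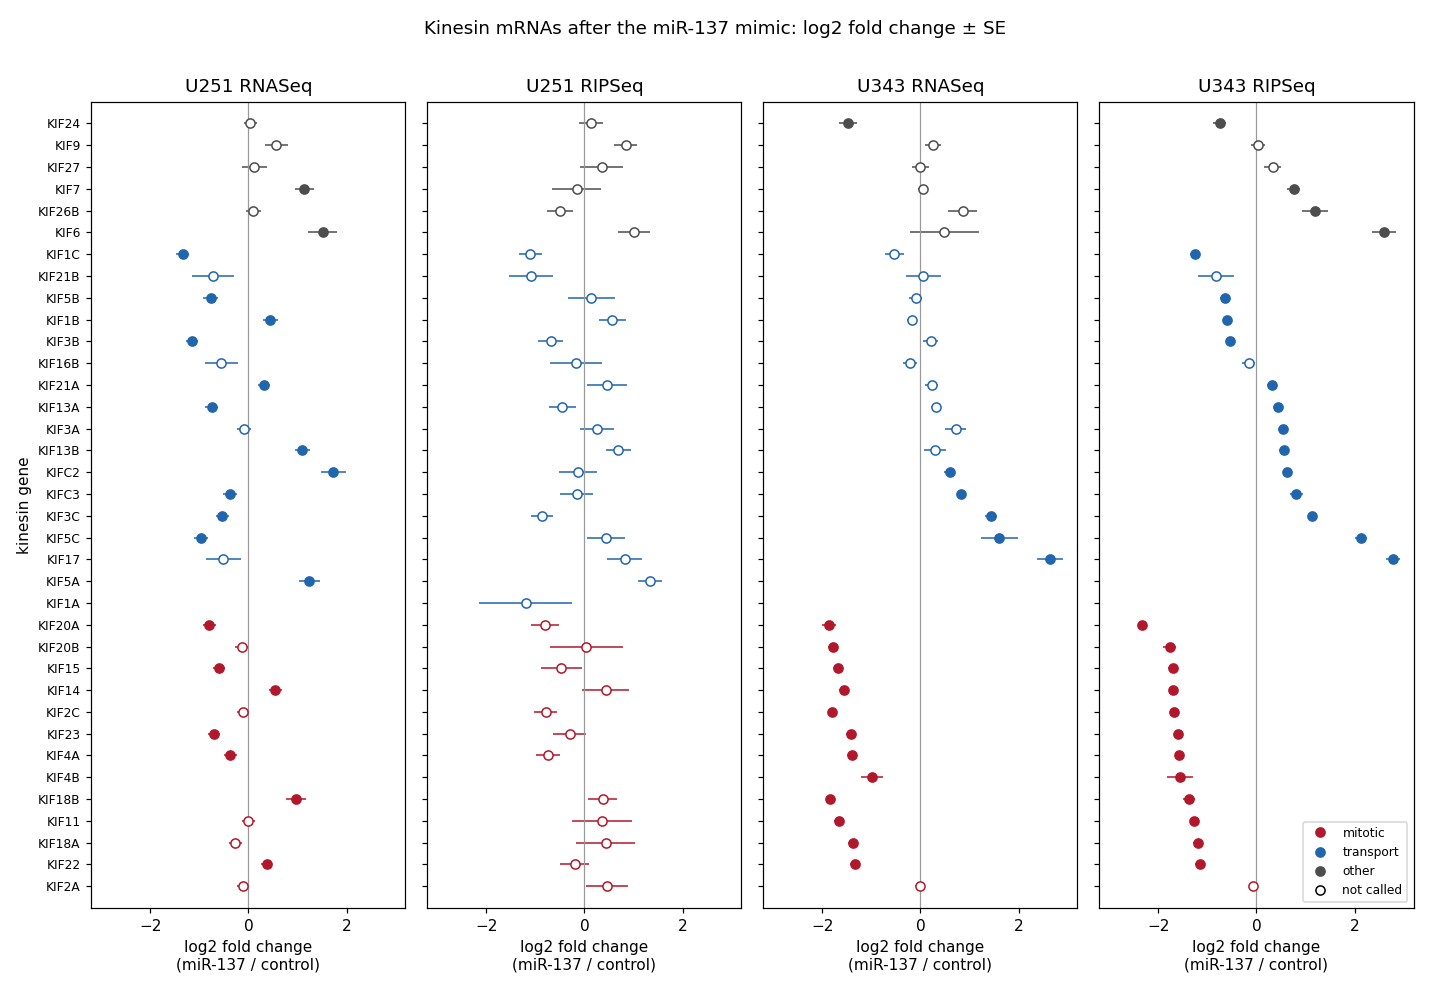
Log2 fold change (miR-137 over control) with its SE on the horizontal axis for each kinesin tested, in 1 panel per experiment; red marks mitotic, blue transport and grey other kinesins, and open points did not pass the edgeR threshold. In the U343 panels 12 mitotic kinesins lie between -2.33 and -0.99 and KIF2A lies near 0, while U251 RIPSeq has open points only.

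The largest fall of the family was that of KIF20A, which carries the chromosomal passenger complex to the central spindle for cytokinesis. KIF20A was at 146 and 136 CPM in the U343 RNASeq controls and at 42.9 and 34.7 CPM after miR-137 (log2 fold change -1.86 ± 0.14, SE, adjusted p = 0.00711). In RIPSeq it was at 142 and 148 CPM in the controls and at 28.8 and 28.9 CPM after miR-137 (-2.33 ± 0.08, adjusted p = 1.2e-06). Both miR-137 libraries lay far below both controls in either assay. The other kinesins of cytokinesis moved the same way. KIF23, the motor of centralspindlin, went from 130 and 121 to 49.1 and 44.3 CPM in RNASeq (-1.42 ± 0.1) and from 106 and 103 to 33.1 and 35.7 CPM in RIPSeq (-1.6 ± 0.08). KIF14, which binds the citron kinase at the midbody, went from 81.2 and 78.7 to 28.5 and 25.8 CPM in RNASeq (-1.56 ± 0.1) and from 40.8 and 39.9 to 11.9 and 12.9 CPM in RIPSeq (-1.7 ± 0.09). KIF20B, which acts in late cytokinesis, went from 65.5 and 70.7 to 18.7 and 21 CPM in RNASeq (-1.78 ± 0.11) and from 31.7 and 27.4 to 7.66 and 9.63 CPM in RIPSeq (-1.77 ± 0.14). No miR-137 library of these genes reached a control library. With 2 libraries per group this is limited, and the share of all genes with separate groups was not computed, here or below.

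KIF11, which slides antiparallel microtubules apart to make the spindle bipolar, was at 93.2 and 90.7 CPM in the RNASeq controls and at 27.2 and 31 CPM after miR-137 (-1.66 ± 0.11, adjusted p = 0.00647). In RIPSeq its values were 65.8 and 63.1 CPM in the controls and 25.6 and 27.7 CPM after miR-137 (-1.27 ± 0.09, adjusted p = 1.9e-05). KIF15, which can keep a spindle bipolar in place of KIF11, fell alongside it. Its values were 95.3 and 92.2 CPM against 30.8 and 27.8 CPM in RNASeq (-1.68 ± 0.1) and 42.5 and 42.1 CPM against 11.9 and 14.2 CPM in RIPSeq (-1.7 ± 0.11). Both of these motors had separate groups in both assays.

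The kinesins that shorten microtubules or limit their growth divided. KIF2C, the depolymerase of centromeres, was at 148 and 159 CPM in the RNASeq controls against 44.1 and 44.1 CPM after miR-137 (-1.8 ± 0.09), and at 110 and 123 against 35.9 and 37.1 CPM in RIPSeq (-1.67 ± 0.09). KIF18A, which dampens chromosome movements at the spindle equator, was at 47.4 and 48.4 against 17.9 and 19.1 CPM in RNASeq (-1.37 ± 0.1) and at 29.7 and 26.6 against 11.7 and 13 CPM in RIPSeq (-1.19 ± 0.11). KIF18B, which trims astral microtubules, was at 64.9 and 65.9 against 18.3 and 18.3 CPM in RNASeq (-1.84 ± 0.09) and at 43.2 and 50.4 against 16.7 and 19.5 CPM in RIPSeq (-1.37 ± 0.12). KIF2A, a depolymerase that also works in interphase and in axons, was the mitotic kinesin that did not pass the test. It was at 52.1 and 47.7 CPM in the RNASeq controls and at 51.5 and 47.4 CPM after miR-137, with overlapping groups (-0.01 ± 0.1, adjusted p = 0.939), and its RIPSeq value was -0.07 ± 0.08 (adjusted p = 0.500). KIF2B had at most 3 reads in any U343 library and was not tested.

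Among the chromokinesins, which bind chromosome arms, KIF22 went from 131 and 138 to 53.6 and 52.6 CPM in RNASeq (-1.34 ± 0.09) and from 119 and 133 to 54 and 59.8 CPM in RIPSeq (-1.15 ± 0.1). KIF4A, which also organises the central spindle, went from 88.4 and 93.3 to 35.4 and 33.5 CPM in RNASeq (-1.4 ± 0.09) and from 71.4 and 72.9 to 23.5 and 24.8 CPM in RIPSeq (-1.58 ± 0.08). KIF4B, a nearly identical copy of KIF4A without introns, had 75 and 69 control reads in RNASeq against 39 and 34 after miR-137 (-0.99 ± 0.22, adjusted p = 0.0459), and its RIPSeq value was -1.56 ± 0.26. Beside the 4084 and 3533 control reads of KIF4A these may be shared reads of the pair, so the value of KIF4B is uncertain. Its RNASeq call was also lost with DESeq2, with upper-quartile scaling, without a filter beyond 1 read, and without either control or miR-137 replicate 2. KIF22 is listed on an unplaced part of chromosome 16 in hg18 (16_random), and KIF20A overlaps CDC23 on the other strand by 67 bases.

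**Figure D2:**
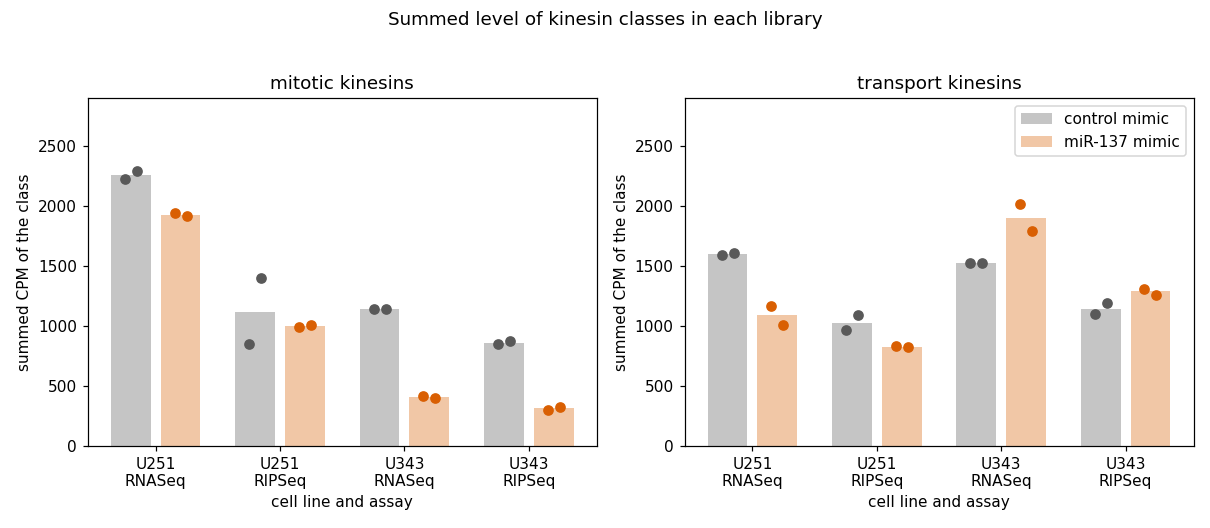
Summed CPM of the mitotic (left) and transport (right) kinesins by cell line and assay; points are the 2 libraries of a group and bars their mean, in grey for the control and in orange for the miR-137 mimic. In U343 the mitotic sum drops from 1140 to 410 CPM in RNASeq and from 862 to 316 CPM in RIPSeq, and the 2 U251 RIPSeq controls lie at 847 and 1400 CPM; CPM were scaled within each experiment.

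The falls were also seen by the study's own rule, which asks Fisher's exact test for odds ratios above 2 with adjusted p below 0.001 in each of 4 pairings of control with miR-137 libraries, and which takes no account of replicate spread. It called 11 mitotic kinesins lower in U343 RNASeq and 9 in RIPSeq, where KIF18A, KIF22 and KIF4B did not pass. Over all genes it called 2.88% lower and 1.51% higher in RNASeq and 3.40% and 4.83% in RIPSeq. Without either control library of U343 RNASeq, 0 of the 12 mitotic calls of edgeR were left, although the fold changes kept their sign. Without miR-137 replicate 1 or 2 of that experiment, the median over the mitotic kinesins was -1.57 or -1.49.

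Other genes of cell division moved with the mitotic kinesins in U343. All 14 spindle partners on the list, among them AURKA (-2.19 ± 0.1 in RNASeq and -2.36 ± 0.08 in RIPSeq) and the kinesin CENPE (-2.13 ± 0.09 and -2.52 ± 0.12), which lies outside the family as defined by symbol, were lower in both assays, with a median of -1.41 in each. All 12 genes of a proliferation list were lower in both assays, by medians of -1.37 (RNASeq) and -1.33 (RIPSeq). The summed level of that list was 3010 and 3050 CPM in the U343 RNASeq controls and 1100 and 1230 CPM after miR-137. In these bulk samples, fewer dividing cells and less kinesin mRNA in each of them cannot be told apart.

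Promoters of mitotic kinesins are shown because genes expressed late in the cell cycle often share a pair of elements near the transcript start, the cell cycle genes homology region (CHR, TTTGAA) and the CCAAT box bound by NF-Y. RefSeq windows of GRCh38.p14 with 250 bases before the start and 50 after it were found for 33 of the 41 kinesins. They were searched on both strands for TTTGAA and for CCAAT, matches of which can overlap by 1 base. Each line gives the 100 bases that end just before the start, on the gene's strand, with matches to either element in capitals. KIF11 (chr10:92593030-92593129, plus strand), KIF18A (chr11:28108157-28108256, minus strand), KIF23 (chr15:69414249-69414348, plus strand) and KIF4A (chrX:70290004-70290103, plus strand) held both elements here. KIF20A (chr5:138179012-138179111, plus strand) held matches to CCAAT alone, and KIF1C (chr17:4997850-4997949, plus strand), a transport kinesin, to neither.
KIF11: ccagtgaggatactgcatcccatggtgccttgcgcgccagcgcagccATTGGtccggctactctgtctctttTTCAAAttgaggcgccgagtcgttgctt
KIF18A: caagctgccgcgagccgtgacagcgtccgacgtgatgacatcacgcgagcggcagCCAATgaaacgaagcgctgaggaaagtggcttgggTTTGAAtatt
KIF23: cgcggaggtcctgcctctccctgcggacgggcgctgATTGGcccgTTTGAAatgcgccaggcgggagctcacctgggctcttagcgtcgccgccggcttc
KIF4A: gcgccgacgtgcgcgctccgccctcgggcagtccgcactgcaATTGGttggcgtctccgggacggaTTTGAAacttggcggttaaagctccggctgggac
KIF20A: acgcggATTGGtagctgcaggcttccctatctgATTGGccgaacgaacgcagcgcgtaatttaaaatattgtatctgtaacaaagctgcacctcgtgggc
KIF1C: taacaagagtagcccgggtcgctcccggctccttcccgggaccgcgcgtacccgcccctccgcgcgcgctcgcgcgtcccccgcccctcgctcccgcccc

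TTTGAA was found in 9 of 15 windows of mitotic kinesins (60.0%), in 1 of 17 windows of transport kinesins (5.88%), in 0 of 10 windows of the others and in 15.2% of all 35116 windows. CCAAT was found in 10 of the 15 mitotic windows (66.7%), in 5 of 17 transport windows (29.4%), in 4 of 10 others (40.0%) and in 34.6% of all windows. Both lay in 8 of 15 mitotic windows (53.3%), in the window of KIF5B among transport kinesins, in 0 of the others and in 5.90% of all. In KIF11 TTTGAA began 28 bases before the start and the box 53 bases before it, and in KIF18A these distances were 10 and 45 bases. KIF2A, which was not called in U343, and KIF2C, which fell, had a match to neither sequence. Variants of these letters were not searched, so a window without a match may still hold an element. A match describes these letters and is no evidence of a bound factor.

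**Figure D3:**
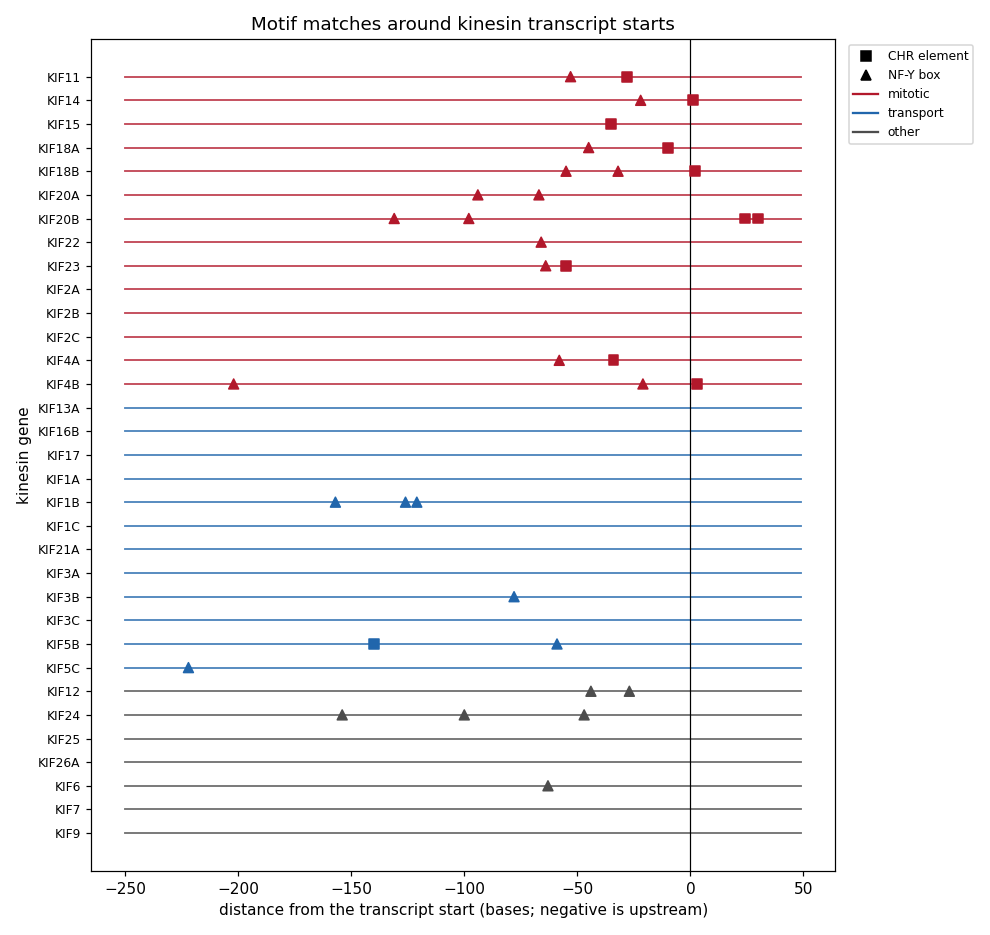
Distance of each match from the transcript start in bases (horizontal axis, negative is upstream) for 33 kinesins, with squares for the CHR element and triangles for the NF-Y box; genes with several windows are drawn on 1 line. Squares gather near the start in 9 mitotic kinesins, and KIF5B holds the only square among the transport kinesins, 140 bases upstream.

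Transport kinesins did not fall as a class in U343. Of 15 tested, 5 were higher and 0 lower in RNASeq, and 9 were higher and 4 lower in RIPSeq, with medians of 0.3 and 0.43. Over all genes tested 8.31% were higher and 11.7% lower in RNASeq, and 28.5% higher and 27.8% lower in RIPSeq. The 4 of 15 that were lower in RIPSeq are near that share and are not read as a result about the class. The 5 that were higher in RNASeq, KIF17, KIF3C, KIF5C, KIFC2 and KIFC3, were higher in RIPSeq as well. The summed level of all 17 transport kinesins was 1530 CPM in both RNASeq controls against 2020 and 1790 CPM after miR-137. In RIPSeq the sum was 1100 and 1190 CPM against 1310 and 1260 CPM. KIFC3 alone was at 373 CPM in both RNASeq controls against 693 and 631 CPM after miR-137. Its RIPSeq values were 271 and 350 CPM against 543 and 544 CPM, so the rise of the sums was largely that of KIFC3.

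KIF17, a motor of dendrites and cilia, rose most, from 81 and 50 reads in the RNASeq controls to 473 and 342 after miR-137. On the CPM scale this was 1.75 and 1.32 against 11.2 and 8.06 (log2 fold change 2.64 ± 0.27, adjusted p = 0.00987), and in RIPSeq it was 1.53 and 1.7 against 10.9 and 11.2 (2.78 ± 0.15, adjusted p = 6.6e-06). KIF5C, a conventional kinesin heavy chain that is abundant in neurons, was at 6.93 and 6.55 CPM in the RNASeq controls and at 13.6 and 27.5 CPM after miR-137 (1.61 ± 0.37, adjusted p = 0.0478). The miR-137 libraries lay far apart, the lower of them nearer to the controls than to the other. Without either control library the RNASeq call of KIF5C was lost, as were those of KIF17, KIF3C, KIFC2 and KIFC3. In RIPSeq the miR-137 libraries of KIF5C were alike, at 20.4 and 20.2 CPM against 4.19 and 5.11 CPM in the controls (2.13 ± 0.13, adjusted p = 1.2e-05). KIF3C, a kinesin II subunit found mainly in neurons, went from 21.7 and 22.5 to 65.8 and 54 CPM in RNASeq (1.44 ± 0.13) and from 24.5 and 22.7 to 51.9 and 52.1 CPM in RIPSeq (1.14 ± 0.09).

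Smaller rises were those of the minus-end directed kinesins. KIFC3, which acts at epithelial junctions and in Golgi positioning, went from 373 CPM in both RNASeq controls to 693 and 631 CPM (0.83 ± 0.09) and from 271 and 350 to 543 and 544 CPM in RIPSeq (0.81 ± 0.13). KIFC2 went from 70.6 and 79.1 to 109 and 119 CPM in RNASeq (0.6 ± 0.11) and from 68.7 and 68.2 to 109 and 101 CPM in RIPSeq (0.62 ± 0.08). KIFC2 overlaps FOXH1 on the other strand by 383 bases, and whether counting used strand is not given in the sources used here. In RIPSeq alone, KIF3A, the partner of KIF3B in the cilium-building kinesin II, passed the test at 16.8 and 17.3 CPM against 12.3 and 11.1 CPM (0.54 ± 0.1). So did KIF13A (0.43 ± 0.1) and KIF13B (0.57 ± 0.1), which move endosomes and membrane proteins, and KIF21A (0.32 ± 0.1), a regulator of microtubule growth.

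The 4 transport kinesins that were lower in U343 RIPSeq included KIF1C, a fast carrier of dense-core vesicles and mRNA, at 274 and 304 CPM in the controls and 128 and 115 CPM after miR-137 (-1.25 ± 0.1, adjusted p = 4.9e-05). In RNASeq its controls were at 310 and 304 CPM and its miR-137 libraries at 250 and 175 CPM (-0.53 ± 0.19, adjusted p = 0.127). The groups did not overlap there, but the miR-137 libraries lay far apart. The others were KIF5B, the ubiquitous conventional kinesin, at 89.3 and 89.7 against 61.2 and 52.9 CPM (-0.65 ± 0.09), KIF1B, which carries mitochondria and synaptic vesicle precursors (-0.59 ± 0.09), and KIF3B (-0.53 ± 0.08). In RNASeq the values of these 3 were -0.1 ± 0.14, -0.17 ± 0.11 and 0.21 ± 0.15, none past the threshold. The study's rule called KIF1C lower and KIF17, KIF3C and KIF5C higher in RIPSeq, and KIF17 and KIF3C higher in RNASeq.

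Of the other kinesins of U343, KIF24, which acts at the mother centriole to hold back cilia, was lower in both assays, from 35.5 and 34.6 to 10.6 and 14.5 CPM in RNASeq (-1.48 ± 0.18, adjusted p = 0.0138) and from 24.7 and 26.5 to 13.1 and 17.4 CPM in RIPSeq (-0.75 ± 0.14). KIF6, of which little is known, was higher in RIPSeq at 103 and 91 reads against 21 and 14 (2.6 ± 0.25, adjusted p = 9.7e-05), while in RNASeq its miR-137 libraries had 18 and 76 reads against 33 in either control, so that the groups overlapped. KIF26B (1.19 ± 0.27) and KIF7, a regulator of Hedgehog signalling in cilia (0.76 ± 0.13), were also higher in RIPSeq. The RNASeq call of KIF24 was lost without either control library. KIF24 overlaps UBAP1 by 144 bases and KIF7 overlaps C15orf42 by 53 bases.

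**Figure D4:**
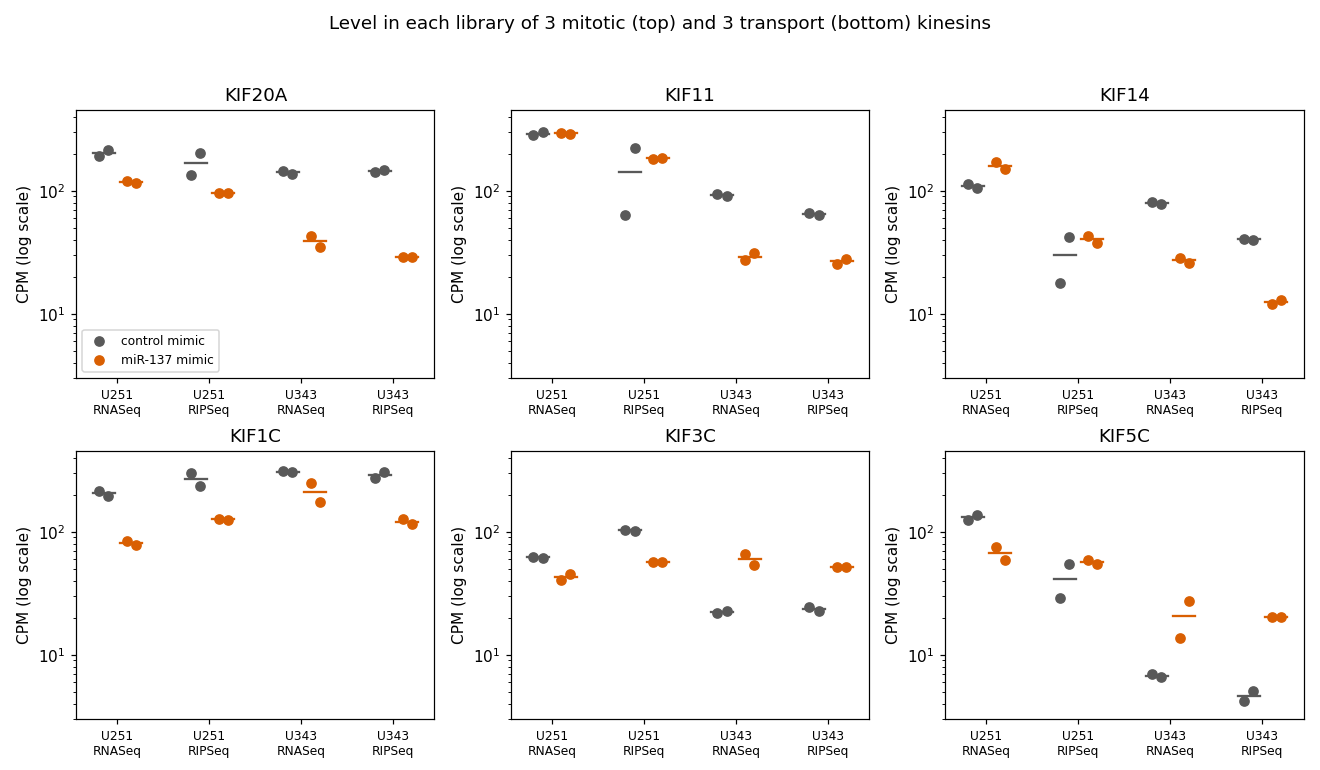
CPM in each library on a log axis for the mitotic kinesins KIF20A, KIF11 and KIF14 (top) and the transport kinesins KIF1C, KIF3C and KIF5C (bottom), in grey for control and in orange for miR-137, with short lines at the means of 2 libraries. KIF11 holds 284 to 298 CPM in all 4 U251 RNASeq libraries but drops in U343, and KIF3C and KIF5C go down in U251 RNASeq and up in both U343 assays.

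In U251 total RNA the mitotic kinesins did not move together. Of 12 tested, 4 were lower, 3 higher and 5 not called, with a median of -0.12, and their summed level was 2230 and 2290 CPM in the controls against 1940 and 1920 CPM after miR-137. Of 16 transport kinesins 7 were lower and 5 higher, with a median of -0.52, and of 6 others 2 were higher. Over all kinesins 11 of 34 were lower and 10 higher, where 29.0% of all 13052 genes tested were lower and 28.7% higher, so these shares are near the background. Upper-quartile scaling moved the median of all genes from 0.02 to 0.16 and their calls from 3780 lower and 3749 higher to 3001 and 4588, and it gave 9 kinesins lower and 11 higher.

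KIF20A was lower here too, from 192 and 216 to 119 and 116 CPM (-0.8 ± 0.13, adjusted p = 1.5e-04). KIF23 fell from 474 and 515 to 305 and 305 CPM (-0.7 ± 0.13), KIF15 from 90.4 and 91.3 to 64.9 and 54.9 CPM (-0.6 ± 0.13) and KIF4A from 88 and 98.1 to 73.2 and 70.6 CPM (-0.37 ± 0.13, adjusted p = 0.0223). In contrast, KIF18B rose from 29.4 and 17.8 to 42.8 and 49.6 CPM (0.97 ± 0.2, adjusted p = 8.8e-04), KIF14 from 114 and 105 to 171 and 149 CPM (0.55 ± 0.13) and KIF22 from 68 and 69.3 to 86.2 and 91.4 CPM (0.37 ± 0.12, adjusted p = 0.0202). KIF11 was at 284 and 298 CPM against 293 and 291 CPM, with overlapping groups (0 ± 0.13, adjusted p = 0.986). In a joint fit with the U251 RIPSeq libraries, KIF20A was the only mitotic kinesin called. Of the 14 spindle partners 10 were lower and 1 higher, and of the 12 proliferation genes 7 were lower, whose summed level was 4210 and 4230 CPM in the controls and 3640 and 3120 CPM after miR-137. Of the 6 glioma and astrocyte markers 5 were lower and SOX2 was not called, with a summed level over the 6 of 12100 and 12500 CPM against 5820 and 6080 CPM. In U343 RNASeq 0 of these 6 markers were lower and 2 higher, where 11.7% of all genes were lower and 8.31% higher. In U343 RIPSeq 1 was lower and 1 higher, against 27.8% and 28.5% of all genes. The part of the markers in the kinesin values was not tested.

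KIF1C had the largest fall among the kinesins in U251 RNASeq, from 214 and 196 to 84.1 and 78.3 CPM (-1.34 ± 0.13, adjusted p = 1.7e-06). KIF3B, a motor subunit of kinesin II, fell from 160 and 156 to 74.7 and 67 CPM (-1.15 ± 0.13) and KIF3C from 62.6 and 61.4 to 40.7 and 45.1 CPM (-0.53 ± 0.13). The conventional heavy chains went apart. KIF5C fell from 125 and 137 to 75.7 and 58.8 CPM (-0.96 ± 0.14) and KIF5B from 419 and 492 to 291 and 243 CPM (-0.77 ± 0.15), while KIF5A, the chain most restricted to neurons, rose from 5.56 and 4.4 to 13.3 and 10.2 CPM (1.24 ± 0.21, adjusted p = 2.2e-04). KIF13A fell from 259 and 255 to 170 and 135 CPM (-0.75 ± 0.14) and its relative KIF13B rose from 24.8 and 21.5 to 55.4 and 43.8 CPM (1.1 ± 0.15). Groups were separate for each of these genes, but the share of all genes with separate groups was not computed.

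KIFC2 showed the largest rise, at 48 and 31 control reads against 96 and 88 after miR-137, or 3.07 and 1.9 against 8.66 and 7.81 CPM (1.73 ± 0.25, adjusted p = 5.9e-05). KIF6 rose from 1.15 and 1.47 to 4.24 and 3.28 CPM (1.51 ± 0.3) and KIF7 from 16.1 and 10.2 to 29.3 and 28.6 CPM (1.14 ± 0.19). KIF1B (0.45 ± 0.15), KIF21A (0.32 ± 0.13, adjusted p = 0.0473) and KIFC3 (-0.37 ± 0.14, adjusted p = 0.0368) passed narrowly. The study's rule called KIF5A, KIF13B, KIFC2, KIF6 and KIF7 higher and 0 kinesins lower in U251 RNASeq, where it called 2.21% of all genes lower and 6.14% higher.

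In U251 RIPSeq no kinesin of 35 tested passed edgeR's threshold (10 had an unadjusted p under 0.05, and DESeq2 called 1 lower and 1 higher), where 0.263% of all 14087 genes were lower and 0.944% higher. Of the 12 mitotic kinesins tested, 9 were higher in control replicate 2 than in replicate 1. The median ratio of replicate 2 to replicate 1 over all 12 was 1.95. Of the transport kinesins 7 of 17 were higher in replicate 2, with a median ratio of 0.921 over the 17. Among the other kinesins it was 1 of 6, with a median ratio of 0.825. These shares were not computed over all genes, so they are not read as a result about the classes. KIF20B was at 22.9 CPM in control replicate 1 and at 110 CPM in replicate 2, while its miR-137 libraries lay between, at 64.8 and 71.7 CPM. KIF11 showed the same, with 62.9 and 221 CPM in the controls and 181 and 185 CPM after miR-137. Leaving out control replicate 1, edgeR called 8 mitotic kinesins lower and 1 higher. Leaving out control replicate 2 gave 4 mitotic kinesins lower and 6 higher. The median over the mitotic kinesins was -0.08 with both controls, -0.47 without replicate 1 and 0.12 without replicate 2. In those fits the lone control is assumed to vary like the miR-137 libraries.

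Of the kinesins tested, 3 of 12 mitotic, 5 of 17 transport and 1 of 6 others were below 0 whichever control was used. Another 2, 6 and 4 of these classes were above 0 throughout, and the share over all genes was not computed. Those described next were picked from these and did not pass edgeR's threshold. KIF1C was at 302 and 235 CPM in the U251 RIPSeq controls and at 126 and 125 CPM after miR-137 (-1.1 ± 0.24, adjusted p = 0.120), and its value was -0.9 without control replicate 1 and -1.31 without replicate 2. KIF3C was at 104 and 101 against 56.8 and 56.7 CPM (-0.86 ± 0.23, adjusted p = 0.154), with values of -0.83 and -0.92. KIF20A was at 133 and 201 against 95.9 and 95.1 CPM (-0.8 ± 0.29, adjusted p = 0.236), with values of -1.07 and -0.52. KIF5A was at 77 and 85 control reads against 198 and 232 (1.34 ± 0.24, adjusted p = 0.0915), with values of 1.41 and 1.24, and it was the kinesin that the study's rule called higher in this experiment. Over all genes that rule called 1.49% lower and 3.47% higher, and it called 0 kinesins lower.

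The response to miR-137 differed between the lines for 22 of 35 kinesins in RNASeq, by the interaction of mimic and cell line in edgeR, where 25.2% of 15550 genes differed. The change was lower in U343 for 11 mitotic kinesins, 2 others (KIF24 and KIF7) and 1 transport kinesin (KIFC2), and it was higher in U343 for 8 transport kinesins. KIF18B had the largest difference among the mitotic kinesins, rising in U251 and falling in U343 (difference -2.82 ± 0.29, adjusted p = 0.00104), followed by KIF14 (-2.11 ± 0.17, adjusted p = 4.6e-04). KIF20A fell in both lines and by more in U343 (-1.07 ± 0.2, adjusted p = 0.00653). KIF17 (3.14 ± 0.42), KIF5C (2.56 ± 0.41) and KIF3C (1.96 ± 0.18) had the largest differences in the other direction. That of KIF17 rests on few U251 RNASeq reads, 27 and 24 in the controls against 13 and 12 after miR-137, and KIF17 was not called in U251.

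KIF14, KIF18B and KIF22 were called higher in U251 RNASeq and lower in U343 RNASeq, and KIF3C, KIF5C and KIFC3 were called lower in U251 and higher in U343. Of these U251 calls, only that of KIF5C was kept in the joint fit of the 8 U251 libraries. That of KIFC3 was also lost with DESeq2, upper-quartile scaling and both other filters, and that of KIF22 without a filter beyond 1 read and without either control or miR-137 replicate 2. KIF2A showed no difference that passed the test (0.09 ± 0.16, adjusted p = 0.733). In RIPSeq the lines differed for 4 of 37 kinesins, where 3.28% of 15959 genes differed, namely KIF18B (-1.67 ± 0.35, adjusted p = 0.0497), KIF20A (-1.48 ± 0.29, adjusted p = 0.0410), KIF17 (2.02 ± 0.41, adjusted p = 0.0480) and KIF3C (2.05 ± 0.22, adjusted p = 0.0107). Without U251 RIPSeq control replicate 1 or 2, 24 or 27 kinesins differed, and without any of the other libraries 0 did.

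**Figure D5:**
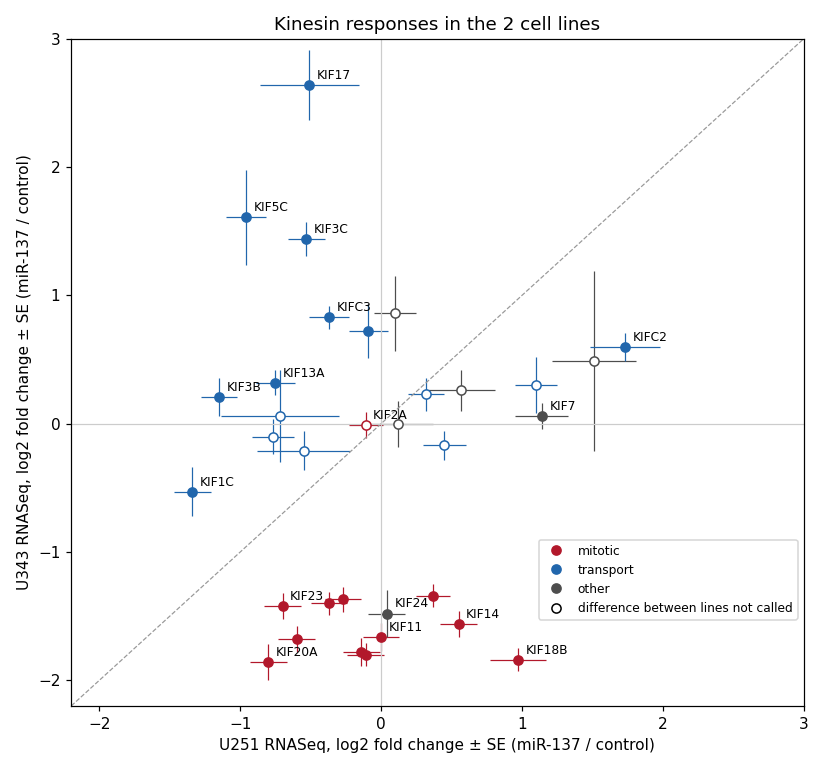
Log2 fold change (miR-137 over control) with its SE in U251 RNASeq (horizontal) and in U343 RNASeq (vertical) for each kinesin tested in both lines; the dashed line marks equal responses, and open points are genes whose difference between lines was not called. The mitotic kinesins other than KIF2A lie in a band from -1.86 to -1.34 in U343 but spread from -0.8 to 0.97 in U251, and KIF17, KIF5C and KIF3C lie at the upper left.

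In control cells the levels of single kinesins differed between the lines. Of 35 tested in RNASeq, 19 were lower and 12 higher in U343 than in U251, where 39.9% of 14787 genes were lower and 44.9% higher, so that the share of kinesins called in either direction was near that of all genes. KIF5C (log2 difference -4.22 ± 0.11) and KIF26B (-3.12 ± 0.15) were lower in U343, and KIF5A had 87 and 72 reads in the U251 controls against 0 and 5 in those of U343. KIFC2 (4.97 ± 0.18), KIF16B, which moves early endosomes (2.9 ± 0.18), and KIFC3 (2.38 ± 0.1) were higher in U343. Of the mitotic kinesins 8 were lower in U343, the largest difference being that of KIF18A (-2.43 ± 0.09), and 3 were higher. As the lines were prepared with different kits, line and kit cannot be told apart here.

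Comparing the assays asked whether the PABP-bound share of kinesin mRNA changed beyond total RNA. The interaction of mimic and assay was called for 0 of 35 kinesins in U251, with 4 at an unadjusted p under 0.05 and 2 calls by DESeq2, where 0.134% of 14210 genes were called. It was called for 0 of 34 in U343, with 10 at an unadjusted p under 0.05 and 2 calls by DESeq2, where 0.00649% of 15413 genes were called. The change in RIPSeq minus that in RNASeq was -0.47 ± 0.15 for KIF20A (adjusted p = 0.218), -0.71 ± 0.23 for KIF1C (adjusted p = 0.219) and 0.39 ± 0.13 for KIF11 (adjusted p = 0.230) in U343. Leaving out miR-137 replicate 2 of U343 RNASeq gave 12 kinesins with a difference, and leaving out U251 RIPSeq control replicate 1 or 2 gave 8 or 22.

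Where kinesin mRNAs differed between PABP-bound and total RNA, most were lower in PABP-bound RNA. In U343 controls 15 of 34 were lower and 0 higher in RIPSeq, where 15.7% of all genes were lower and 18.2% higher, and after miR-137 17 were lower and 0 higher, against 16.8% and 18.4%. In U251 controls 15 of 35 were lower and 4 higher, against 18.2% and 22.3%, and after miR-137 11 were lower and 2 higher, against 12.6% and 12.2%. KIF21A (-1.2 ± 0.12), KIF20B (-1.08 ± 0.14), KIF5B (-1.07 ± 0.13) and KIF15 (-1.03 ± 0.1) were the lowest in U343 controls. KIF20A (0.17 ± 0.11, adjusted p = 0.264) and KIF22 (0.02 ± 0.09, adjusted p = 0.856) did not pass there. Without any of the 4 control libraries of U343, 9 were lower. In U251, 5 were lower in controls without RNASeq control replicate 1 or 2, and after miR-137 0 to 6 were lower without any of the 4 miR-137 libraries.

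The partners of transport kinesins and the opposing motor did not share 1 direction. Of 17 cargo adaptors and light chains, 6 were higher and 1 lower in U343 RNASeq and 7 higher and 4 lower in RIPSeq, with medians of 0.25 and 0.14. The largest changes in U343 were those of HAP1, an adaptor that links huntingtin to motors (4.32 ± 0.24 in RNASeq and 3.55 ± 0.18 in RIPSeq), and MAPK8IP2, a scaffold that binds kinesin light chains (3.07 ± 0.17 and 3.56 ± 0.11). In U251 RNASeq 5 were higher and 4 lower, with a median of -0.04. Over all genes 8.31% were higher and 11.7% lower in U343 RNASeq, 28.5% and 27.8% in U343 RIPSeq, and 28.7% and 29.0% in U251 RNASeq, so the counts in U343 RIPSeq and U251 RNASeq are not read as results about the adaptors or the dynein subunits. Of the dynein and dynactin subunits 4 were higher and 2 lower of 20 tested in U343 RNASeq, 5 higher and 3 lower of 19 in RIPSeq, and 2 higher and 5 lower of 19 in U251 RNASeq. In U251 RIPSeq 0 genes of these lists were called, as of the spindle and proliferation lists. With unadjusted p under 0.05 there were 4 adaptors, 1 dynein or dynactin subunit, 2 spindle partners and 2 proliferation genes.

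A group of 8 kinesins had too few reads for the test in at least 1 line. KIF12, KIF19, KIF25, KIF26A and KIF2B were tested for the response to miR-137 in no experiment, with at most 20 reads in any library. KIF1A, a neuronal carrier of synaptic vesicle precursors, was tested in U251 RIPSeq alone, where its controls had 55 and 10 reads. KIF4B was not tested in U251 and KIF5A not in U343.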

How the data were processed

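The deposited unit is the count. Per the labels and methods, the authors used RMAP for alignment (build hg18) and took read counts over 1 merged transcript model of each RefSeq gene, without normalization. A duplicate gene row was dropped from each U251 table (1 per table). Main tests used edgeR 4.0.16 in R 4.3.3 (quasi-likelihood F test, TMM scaling, filterByExpr) with Benjamini-Hochberg adjustment over all genes tested and a threshold of 0.05, and SE were taken from the F statistic. The study's rule was run with two-sided Fisher's exact tests in Python 3.11.15, mirrored for rises. The alternatives tried were DESeq2 1.42.0, upper-quartile scaling, no filter beyond 1 read, a mean of at least 50 reads, the replicate number as a block, fitting a line's 8 libraries jointly, and leaving out each library. Procedures were tested on simulated data. Values were to be given for genes called in at least 2 of the 4 experiments and for the 3 largest changes in each, and those of other kinesins, such as KIF2A and KIF3A, were chosen after their values were seen. Ranking genes by level per length was not done, as no transcript lengths were used. The members and all lists were chosen with earlier results of these data known. PCR reads without molecular identifiers are not independent molecules.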

Additional observations from a re-analysis of the deposited data

Results flagged for a closer look

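The results here are kinesins whose response to miR-137 differed between U343 and U251 by a test of the difference itself, the interaction of mimic and cell line in edgeR's quasi-likelihood test with Benjamini-Hochberg adjustment over all genes. Values are the log2 fold change in U343 minus that in U251, and the lines were prepared with different kits, so line and kit cannot be told apart.

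Among mitotic kinesins in RNASeq the difference was -2.82 for KIF18B, -2.11 for KIF14, -1.72 for KIF22, -1.7 for KIF2C, -1.67 for KIF11, -1.65 for KIF20B, -1.11 for KIF18A, -1.08 for KIF15, -1.07 for KIF20A, -1.03 for KIF4A and -0.73 for KIF23. Their adjusted p ran from 4.6e-04 (KIF14) to 0.0166 (KIF23). Among transport kinesins it was 3.14 for KIF17, 2.56 for KIF5C, 1.96 for KIF3C, 1.35 for KIF3B, 1.19 for KIFC3, 1.07 for KIF13A, 0.81 for KIF3A, 0.8 for KIF1C and -1.14 for KIFC2, with adjusted p from 6.4e-04 (KIF3C) to 0.0465 (KIF3A). Of the other kinesins, KIF24 (-1.53) and KIF7 (-1.1) differed.

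In RIPSeq the difference was -1.67 for KIF18B, -1.48 for KIF20A, 2.02 for KIF17 and 2.05 for KIF3C, with adjusted p of 0.0497, 0.0410, 0.0480 and 0.0107. The U251 RIPSeq control libraries, which stood apart from each other, enter each of these values.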

How the results depend on the processing

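No kinesin called in U251 RNASeq, U343 RNASeq or U343 RIPSeq changed sign under any alternative run. In U251 RNASeq the joint fit of 8 libraries kept 9 of 21 calls, with mitotic kinesins at 1 lower and 0 higher and transport kinesins at 4 lower and 3 higher, and without a filter beyond 1 read 3 transport kinesins were higher. In U251 RIPSeq the joint fit gave 3 mitotic kinesins lower and 3 transport kinesins lower and 1 higher, and DESeq2 gave 1 transport kinesin lower and 1 higher. DESeq2 called the interaction with the assay for 2 kinesins in either line, that with the line in RIPSeq for 14, and 5 kinesins higher in U251 RIPSeq than RNASeq after miR-137, for which upper-quartile scaling gave 1. With an odds ratio over 1.5 the study's rule gave 2 kinesins lower in U251 RNASeq, 2 lower in U251 RIPSeq, 4 higher in U343 RNASeq and 7 higher in U343 RIPSeq, and with TMM-scaled totals 2 lower and 1 higher in U251 RNASeq. The cause was not tested.

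The labels give both mimics the same replicate numbers but no shared batch. Deviations of same-numbered libraries correlated at 0.03 in U251 RNASeq, 0.04 in U251 RIPSeq, 0.14 in U343 RNASeq and 0.28 in U343 RIPSeq. A replicate block gave 12 kinesins lower and 11 higher in U251 RNASeq, 0 and 0 in U251 RIPSeq, 12 and 5 in U343 RNASeq and 17 and 12 in U343 RIPSeq, and 1 kinesin with a line difference in RIPSeq. Under it KIF5C and KIF4B lost their calls in U343 RNASeq, so another kinesin stands among the 5 higher in place of KIF5C.

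Leaving out each library in turn gave these ranges. In U251 RNASeq 3 to 5 transport kinesins were higher. In U251 RIPSeq 0 to 8 mitotic kinesins were lower and 0 to 6 higher, and 0 to 8 transport kinesins were lower and 0 to 8 higher. In U343 RNASeq 0 to 12 mitotic kinesins were lower, and 0 to 1 transport kinesins were lower and 0 to 9 higher. The assay interaction was called for 0 to 22 kinesins in U251 and 0 to 12 in U343, and the line interaction in RIPSeq for 0 to 27. In RIPSeq against RNASeq, U251 controls had 5 to 19 kinesins lower and 1 to 10 higher, U251 after miR-137 0 to 6 lower and 0 to 1 higher, U343 controls 9 lower, and U343 after miR-137 10 to 18 lower and 0 to 3 higher. By the study's rule, 0 to 1 kinesins were lower in U251 RNASeq, 0 to 3 lower and 1 to 7 higher in U251 RIPSeq, and 2 to 4 higher in U343 RNASeq.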
